A study of Homo sapiens with 8 samples.

Results

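The glycolysis and hypoxia response genes described here are 39 of the 61125 genes in the deposited tables. They were chosen by symbol, as a list of the enzymes from hexokinase to lactate dehydrogenase, the lactate transporters, the kinases that set the pace of glycolysis and of pyruvate oxidation, the subunits of hypoxia-inducible factor (HIF) with VHL, and HIF target genes. The rule uses symbols alone, but the list was drawn up with earlier results of these data known. Each symbol matched 1 gene. RNA was sequenced from U-937, an established human pro-monocytic leukemia line, after 72 h of culture under 4 conditions with 2 libraries each. The conditions were 250 µM L-ascorbic acid together with 1 µM all-trans retinoic acid (LAA+ATRA), 1 µM ATRA alone, 250 µM LAA alone, and vehicle, which was PBS with DMSO. All 8 libraries share this cell line, a single model of leukemia, and the labels give no difference between groups other than the compounds. ATRA is a retinoid that drives myeloid differentiation, and LAA is vitamin C.

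Glycolysis splits glucose into pyruvate, which either becomes lactate and leaves the cell through monocarboxylate transporters or enters mitochondria through pyruvate dehydrogenase. Several steps are served by isoenzymes from separate genes, and cells often exchange one isoenzyme for another as they differentiate. HIF is a pair of an alpha subunit, HIF1A or EPAS1, with ARNT; when oxygen is plentiful the alpha protein is hydroxylated by enzymes that use iron and are helped by ascorbate, bound by VHL and degraded, so HIF activity is set mostly at the protein level, which RNA does not measure. Monocytes and macrophages are known for a high glycolytic capacity.

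Library totals ran from 18462552 to 24166770 estimated counts. The low-count filter passed 14995 genes, 37 of the 39 listed ones among them. The gene for carbonic anhydrase 9, CA9, had no count in any library, and PFKFB2, a maker of fructose 2,6-bisphosphate, had 2 to 12 estimated counts per library and was not tested. Averaged over the 8 libraries, 8 of 10 monocytic and myeloid markers exceeded 1 FPKM, all but MPO and CD14; of these 8, CSF1R was under 1 FPKM in 3 of the 4 libraries without ATRA, and MPO passed 1 FPKM in 1 library. The 10 summed to 2235 and 2417 FPKM with LAA+ATRA, 2378 and 2412 FPKM with ATRA, 1279 and 1323 FPKM with LAA and 1038 and 1122 FPKM in vehicle. This sum was highest in the libraries with ATRA, and it was also higher with LAA than in vehicle. Among markers of other cell types, HBB, ALAS2, CD3D, CD3E, MS4A1 and CDH5 were at 0 in every library, while CD79A (B cell) and PECAM1 (endothelium and leukocytes) exceeded 1 FPKM; their part in the results was not tested. In bulk RNA, fewer cells of a type and less RNA per cell cannot be told apart, and nothing in the labels says that replicates were separate cultures, so p-values measure the spread between these libraries, which may be technical.

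With ATRA the listed genes moved in both directions, and related genes such as HK3 and HK2, or SLC16A3 and SLC16A1, went opposite ways. Against vehicle, 8 of the 37 tested genes rose and 14 fell at an adjusted p under 0.05 (edgeR quasi-likelihood test, Benjamini-Hochberg over all genes), so that 59.5% were called, against 42.9% of all genes tested. The share that rose was 21.6%, against 21.9% of all genes, and the share that fell was 37.8%, against 21% of all genes. Past 2-fold, HK3, PFKFB3, SLC16A3 and NDRG1 rose, and HK2, ENO2, SLC16A1, PDK1, VEGFA, BNIP3 and FAM162A fell. The median log2 fold change was -0.18 over the 37 genes and 0 over all genes tested. The ATRA and vehicle libraries did not overlap for 27 of the 37 genes (73%), near the 71.9% of all genes. Of the 22 called genes 16 were called under all 16 alternative settings.

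With LAA+ATRA against vehicle, 7 genes rose and 17 fell, which is 64.9% called, against 44.7% of all genes. The 18.9% that rose stand against 23.1% of all genes, and the 45.9% that fell stand against 21.5%. With LAA+ATRA against LAA, 7 rose (18.9%, against 18.4% of all genes) and 14 fell (37.8%, against 18% of all genes), in total 56.8% against 36.4%. The median log2 fold changes of the set were -0.29 and -0.15, where those over all genes were 0.01 and 0. These comparisons share libraries with each other, so they are not separate observations of one pattern. The group ranges did not overlap for 30 of the 37 genes (81.1%, against 73.7% of all genes) with LAA+ATRA against vehicle, and for 29 (78.4%, against 68.7%) with LAA+ATRA against LAA.

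**Figure D1:**
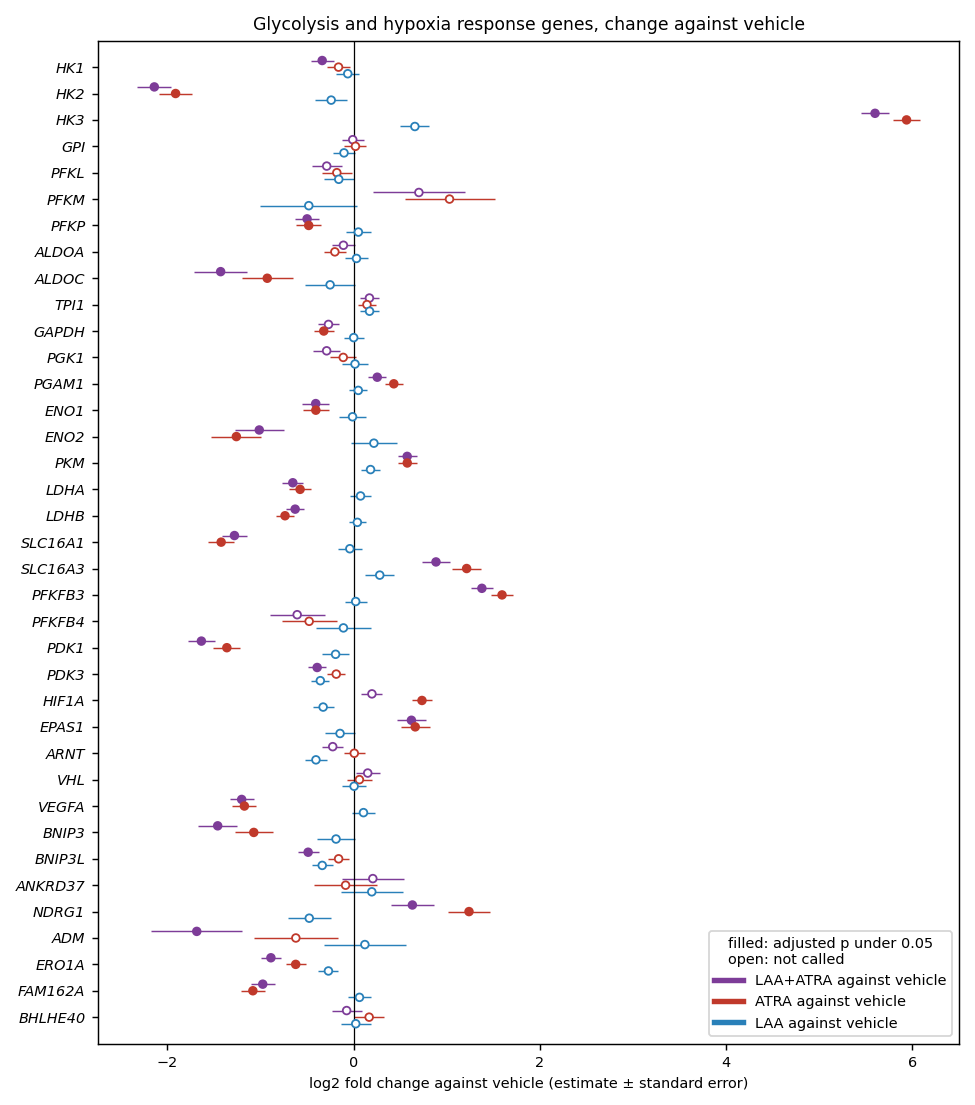
Log2 fold change (x axis, estimate ± standard error) of each of the 37 tested genes (y axis) for LAA+ATRA, ATRA and LAA, each against vehicle, with 2 libraries per group; filled points had an adjusted p under 0.05 and open points did not. HK3 stands far to the right in both comparisons that include ATRA, at 5.60 and 5.94, and no LAA point is filled.

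Promoter sequence is shown for the genes with a single RefSeq start that changed at least 2-fold with ATRA, whether it rose or fell, to set the letters before the start beside the change. The window is the 250 bases before the start on the gene's own strand, from RefSeq on GRCh38.p14, 5′ to 3′, and capitals mark the HIF response core, ACGTG or GCGTG, read on both strands (CACGT and CACGC on the other strand).
HK3 (chr5:176899347-176899596, minus strand): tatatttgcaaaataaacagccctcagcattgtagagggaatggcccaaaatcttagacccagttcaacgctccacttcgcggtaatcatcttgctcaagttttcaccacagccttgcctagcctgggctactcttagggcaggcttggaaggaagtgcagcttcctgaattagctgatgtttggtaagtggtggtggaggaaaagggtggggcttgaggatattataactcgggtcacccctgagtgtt
ENO2 (chr12:6914330-6914579, plus strand): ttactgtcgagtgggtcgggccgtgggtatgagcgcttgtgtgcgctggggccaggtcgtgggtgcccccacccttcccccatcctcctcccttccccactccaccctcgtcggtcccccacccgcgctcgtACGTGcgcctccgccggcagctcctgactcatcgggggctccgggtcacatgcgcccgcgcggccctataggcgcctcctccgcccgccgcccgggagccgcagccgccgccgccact
BNIP3 (chr10:131981924-131982173, minus strand): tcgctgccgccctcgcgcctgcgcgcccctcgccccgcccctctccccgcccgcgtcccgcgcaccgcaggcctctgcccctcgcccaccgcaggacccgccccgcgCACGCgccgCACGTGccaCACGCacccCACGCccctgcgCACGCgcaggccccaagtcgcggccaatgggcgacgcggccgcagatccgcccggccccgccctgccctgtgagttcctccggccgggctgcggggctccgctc
FAM162A (chr3:122383932-122384181, plus strand): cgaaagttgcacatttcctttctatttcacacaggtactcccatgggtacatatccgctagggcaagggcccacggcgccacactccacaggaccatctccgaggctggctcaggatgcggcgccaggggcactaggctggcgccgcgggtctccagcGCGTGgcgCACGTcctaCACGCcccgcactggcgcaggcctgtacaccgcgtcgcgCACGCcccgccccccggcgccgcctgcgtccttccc

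HK3, which rose, held 0 matches. Other genes that rose at least 2-fold did hold some, in 2 of 2 windows of PFKFB3 and in 3 of 5 windows of SLC16A3, which are not printed because these genes have several starts. The same holds for HK2 and PDK1, which fell, with matches in 2 of 2 and in 1 of 2 windows. NDRG1, which rose, and SLC16A1 and VEGFA, which fell, had no promoter entry. ENO2 held 1 match, 118 bases before the start. BNIP3 held 6, from 143 to 104 bases before the start, including an E-box, CACGTG, which overlaps the core and was counted once on each strand. FAM162A held 4, from 92 to 36 bases before the start. Over all RefSeq promoters, 15172 of 35116 windows of this length (43.2%) held at least 1 match. Of the listed genes, 33 had an entry, with 36 of 60 windows (60%) holding a match, and 17 of the 22 genes with a single window (77.3%) did. The share among all genes with a single window was not counted, so the 77.3% has no matching background here. A match describes letters in a window and is not a binding site, and the list holds genes known as HIF targets.

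Hexokinases, which trap glucose in the cell as glucose 6-phosphate, held both the largest rise and the largest fall with ATRA among the 37 tested genes. HK3 (ENSG00000160883.11, chr5:176880869-176899332, minus strand, GENCODE 29 on GRCh38), the hexokinase typical of myeloid cells, had 273 and 226 CPM with LAA+ATRA, 326 and 305 CPM with ATRA, 7.59 and 8.67 CPM with LAA, and 5.20 and 5.09 CPM in vehicle. Both groups with ATRA lay far above both groups without it. The log2 fold change of HK3 was 5.94 ± 0.15 for ATRA against vehicle (SE, n = 2 per group, 61.2-fold, adjusted p = 1.76e-10) and 5.60 ± 0.15 for LAA+ATRA against vehicle (48.4-fold, adjusted p = 2.14e-10). HK2 (ENSG00000159399.10, chr2:74833981-74893359, plus strand), a known HIF target, went the other way, with 46.8 and 32.3 CPM with LAA+ATRA, 53.9 and 38.9 CPM with ATRA, 141 and 154 CPM with LAA, and 159 and 189 CPM in vehicle. Every library with ATRA was below every library without it, and HK2 fell by 3.76-fold with ATRA (log2 -1.91 ± 0.18, adjusted p = 5e-06) and by 4.40-fold with LAA+ATRA (log2 -2.14 ± 0.18, adjusted p = 2.41e-06), both against vehicle. HK1, the form found in most tissues, stayed between 87.8 and 130.4 CPM. Its log2 fold change was -0.16 ± 0.12 for ATRA against vehicle (adjusted p = 0.318) and -0.34 ± 0.12 for LAA+ATRA against vehicle (adjusted p = 0.0424). The LAA+ATRA call was made in 8 of 16 alternatives (adjusted p 0.0181 to 0.437) and was lost on leaving out vehicle replicate 1 (log2 -0.16), LAA+ATRA replicate 1 (-0.41) or 2 (-0.26), or LAA replicate 1 or 2 (-0.34 for each).

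On the per-length scale, HK3 made up 83.4 and 87.1% of the summed FPKM of the 3 hexokinases with LAA+ATRA, 82.9 and 83.5% with ATRA, 6.26 and 10.2% under LAA and 2.75 and 7.06% in vehicle. HK1 and HK2 together were the bulk of hexokinase transcript in all 4 libraries without ATRA, and HK3 was the bulk in all 4 with it. The family sum was 226 and 257 FPKM with LAA+ATRA, 257 and 228 FPKM with ATRA, 66.3 and 71.4 FPKM with LAA and 76.3 and 73.4 FPKM in vehicle. The HK3 levels in vehicle differed more as FPKM (2.10 and 5.18) than as CPM (5.20 and 5.09), and the gene length behind the authors' FPKM differed between libraries.

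**Figure D2:**
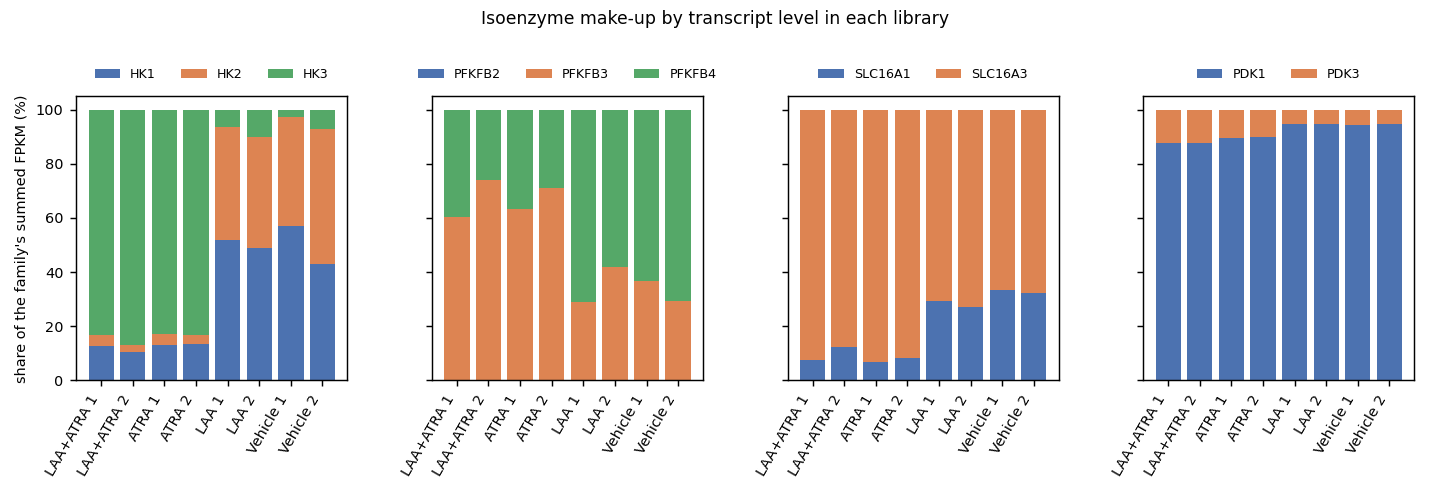
Share of the summed FPKM (y axis, percent) held by each isoenzyme gene in each of the 8 libraries (x axis), for the hexokinases, the PFKFB kinases, the lactate transporters and the pyruvate dehydrogenase kinases. HK3 holds 82.9 to 87.1% of the hexokinase FPKM in the 4 libraries with ATRA and 2.75 to 10.2% in the 4 without it.

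Of the 18 glycolytic enzymes, HK3, PGAM1 and PKM rose with ATRA against vehicle (16.7%, against 21.9% of all genes) and 8 fell (44.4%, against 21%), while 7 were not called. GAPDH, ALDOA and ENO1 were the 3 most abundant of the listed genes by FPKM, at 2706 to 3557, 1881 to 2460 and 1622 to 2688 FPKM. GAPDH, the dehydrogenase that makes NADH, had 3057 and 2536 CPM with LAA+ATRA, 2719 and 2680 CPM with ATRA, 3331 and 3416 CPM with LAA, and 3209 and 3532 CPM in vehicle. Its libraries with ATRA were all lower than those without, but by little, and the log2 fold change for ATRA against vehicle was -0.32 ± 0.11 (adjusted p = 0.0301). ENO1, the main enolase, had 3299 and 2388 CPM with LAA+ATRA, 3074 and 2617 CPM with ATRA, 3650 and 3829 CPM with LAA, and 3538 and 3999 CPM in vehicle. LAA+ATRA replicate 1 came closest to the libraries without ATRA, and the log2 fold change of ENO1 was -0.41 ± 0.14 for ATRA against vehicle (adjusted p = 0.0368). ALDOA, the main aldolase, had 2267 and 1937 CPM with LAA+ATRA, 2092 and 1852 CPM with ATRA, 2284 and 2349 CPM with LAA, and 2060 and 2473 CPM in vehicle. Its ATRA and vehicle libraries overlapped, and the log2 fold change was -0.20 ± 0.12 for ATRA against vehicle (adjusted p = 0.195).

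The smaller isoenzymes of the same steps moved further. ALDOC, an aldolase best known from brain and induced by hypoxia in many cells, had 26.8 and 12.5 CPM with LAA+ATRA, 32.2 and 23.3 CPM with ATRA, 44.0 and 44.3 CPM with LAA, and 42.6 and 62.7 CPM in vehicle. Libraries with ATRA were the 4 lowest, with LAA+ATRA replicate 2 below the rest, and ALDOC fell by 1.90-fold with ATRA (log2 -0.93 ± 0.27, adjusted p = 0.016) and by 2.69-fold with LAA+ATRA (log2 -1.43 ± 0.28, adjusted p = 0.00137), both against vehicle. For LAA+ATRA against vehicle the log2 fold change of ALDOC was -2.07 when LAA+ATRA replicate 1 was left out and -0.97 when replicate 2 was, both called. ENO2, the enolase known from neurons, had 4.25 and 3.52 CPM with LAA+ATRA, 4.20 and 2.42 CPM with ATRA, 10.3 and 7.93 CPM with LAA, and 7.32 and 8.34 CPM in vehicle. It was a low gene throughout and its 4 lowest libraries were those with ATRA, a change of log2 -1.26 ± 0.27 for ATRA against vehicle (adjusted p = 0.00233) and -1.01 ± 0.26 for LAA+ATRA against vehicle (adjusted p = 0.00797). Both stayed minor members of their families, with ALDOC at 0.415 to 1.96% of the aldolase FPKM and ENO2 at 0.0717 to 0.233% of the enolase FPKM.

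PKM, pyruvate kinase, had 3435 and 3046 CPM with LAA+ATRA, 3366 and 3118 CPM with ATRA, 2412 and 2522 CPM with LAA, and 2107 and 2242 CPM in vehicle, and all 4 libraries with ATRA exceeded all 4 without it. PKM rose by 1.49-fold with ATRA against vehicle (log2 0.58 ± 0.10, adjusted p = 0.000598); the gene-level counts do not separate its splice forms. PGAM1, phosphoglycerate mutase, rose by 1.35-fold (log2 0.43 ± 0.10, adjusted p = 0.00323). LDHA and LDHB, the subunits that interconvert pyruvate and lactate, both fell with ATRA, LDHA by 1.49-fold (log2 -0.57 ± 0.11, adjusted p = 0.0015) and LDHB by 1.67-fold (log2 -0.74 ± 0.09, adjusted p = 5.16e-05). Their summed FPKM was 831 and 753 with LAA+ATRA, 699.5 and 798 with ATRA, 1233 and 1198 under LAA and 1082 and 1163 in vehicle. PFKP, a phosphofructokinase, fell by 1.40-fold (log2 -0.48 ± 0.13, adjusted p = 0.0107). The other phosphofructokinases PFKL and PFKM, and the enzymes HK1, GPI, ALDOA, TPI1 and PGK1, were not called for ATRA against vehicle, with log2 fold changes of -0.20 to 0.14 except for the low PFKM at 1.03 ± 0.48 (adjusted p = 0.106).

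Summed over the 18 enzymes, FPKM came to 12970 and 11410 with LAA+ATRA, 11920 and 11740 with ATRA, 13030 and 13060 under LAA and 11910 and 13390 in vehicle. The LAA libraries lay above those with LAA+ATRA or ATRA, and the vehicle libraries overlapped every other group. The replicates of LAA+ATRA differed in a common direction: replicate 2 was below replicate 1 for 18 of 18 glycolytic enzymes, with a median log2 difference of -0.27 where the median over all genes was -0.01. In the ATRA group replicate 2 was below replicate 1 for 14 of 18, with a median of -0.16, and in the vehicle group it was above replicate 1 for 14 of 18, with a median of 0.10. The calls of 4 enzymes that fell changed when single libraries were left out. For ATRA against vehicle, GAPDH was called in 7 of 16 alternatives (adjusted p 0.00423 to 0.307), ENO1 in 8 of 16 (0.000698 to 0.228), ALDOC in 10 of 16 (1e-10 to 0.182) and PFKP in 12 of 16 (0.000249 to 0.0817). On leaving out vehicle replicate 2 the log2 fold changes were -0.25 for GAPDH, -0.32 for ENO1, -0.62 for ALDOC and -0.47 for PFKP, none of them called. On leaving out ATRA replicate 2 they were -0.31, -0.29, -0.70 and -0.39, again none called. Without vehicle replicate 1 GAPDH (-0.39), ENO1 (-0.49) and PFKP (-0.49) lost the call, as did GAPDH without ATRA replicate 1 (-0.32), and GAPDH (-0.32 each) and ENO1 (-0.40 each) without LAA replicate 1 or 2.

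For LAA+ATRA against vehicle the same 18 enzymes gave 3 that rose, HK3, PGAM1 and PKM, and 8 that fell, HK1, HK2, PFKP, ALDOC, ENO1, ENO2, LDHA and LDHB. These shares, 16.7% higher and 44.4% lower, stand against 23.1% and 21.5% of all genes. GAPDH was not called here (log2 -0.27 ± 0.11, adjusted p = 0.0595). The PGAM1 call (log2 0.25 ± 0.10, adjusted p = 0.0485) was made in 4 of 16 alternatives (adjusted p 0.0155 to 0.227), and lost without either vehicle library (0.24 and 0.26), either LAA library (0.25 each) or LAA+ATRA replicate 1 (0.16). ENO1 (log2 -0.41 ± 0.14) was called in 8 of 16 alternatives (adjusted p 0.000489 to 0.241). Its log2 fold change was -0.19 without LAA+ATRA replicate 2 and -0.65 without replicate 1, and the call was lost in the first case and when vehicle replicate 1 (-0.49), vehicle replicate 2 (-0.32) or the second LAA library (-0.41) was left out. PFKP and ENO2 lost the call without vehicle replicate 2 (-0.49 and -0.92) or LAA+ATRA replicate 2 (-0.31 and -0.88). HK2, HK3, ALDOC, PKM, LDHA and LDHB were called in all 16 alternatives.

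The 2 listed lactate carriers moved in opposite directions. SLC16A3 (ENSG00000141526.18, chr17:82228397-82261129, plus strand), which encodes MCT4, the exporter of highly glycolytic cells, had 472 and 335 CPM with LAA+ATRA, 555 and 459 CPM with ATRA, 243 and 288 CPM with LAA, and 216 and 221 CPM in vehicle. All libraries with ATRA were above all without it, and SLC16A3 rose by 2.32-fold with ATRA (log2 1.21 ± 0.15, adjusted p = 5.47e-05) and by 1.85-fold with LAA+ATRA (log2 0.88 ± 0.15, adjusted p = 0.000577), both against vehicle. SLC16A1 (ENSG00000155380.13, chr1:112911847-112957013, minus strand), which encodes MCT1, a carrier that moves lactate in either direction, had 53.0 and 72.6 CPM with LAA+ATRA, 53.0 and 60.8 CPM with ATRA, 146 and 151 CPM with LAA, and 153 and 152 CPM in vehicle. Its 4 libraries with ATRA were below the 4 without it, a fall of 2.68-fold with ATRA (log2 -1.42 ± 0.14, adjusted p = 5.61e-06) and of 2.43-fold with LAA+ATRA (log2 -1.28 ± 0.14, adjusted p = 1.47e-05). As a share of the FPKM of the pair, SLC16A3 held 92.7 and 87.7% with LAA+ATRA, 93.4 and 91.9% with ATRA, 70.7 and 72.8% under LAA and 66.6 and 67.8% in vehicle. An antisense gene, SLC16A1-AS1, was listed with 46 to 123 counts per library, and the strand setting of the counting is not given in the sources used here.

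Of 4 regulatory kinases tested 1 rose and 1 fell with ATRA against vehicle, 25% each way, near the 21.9% and 21% of all genes. PFKFB3 (ENSG00000170525.21, chr10:6144934-6254644, plus strand), which makes fructose 2,6-bisphosphate, the strongest activator of phosphofructokinase, had 132 and 125 CPM with LAA+ATRA, 157 and 142 CPM with ATRA, 45.1 and 55.4 CPM with LAA, and 48.7 and 50.2 CPM in vehicle. Its libraries with ATRA all exceeded those without, and PFKFB3 rose by 3.02-fold with ATRA (log2 1.59 ± 0.12, adjusted p = 5.89e-07) and by 2.60-fold with LAA+ATRA (log2 1.38 ± 0.12, adjusted p = 2.2e-06). PDK1 (ENSG00000152256.14, chr2:172555373-172608669, plus strand), a HIF target that phosphorylates pyruvate dehydrogenase and so holds back pyruvate oxidation, had 298 and 211 CPM with LAA+ATRA, 314 and 301 CPM with ATRA, 732 and 649.7 CPM with LAA, and 753 and 826 CPM in vehicle. The 4 libraries with ATRA were all lower than the 4 without it, and PDK1 fell by 2.57-fold with ATRA (log2 -1.36 ± 0.14, adjusted p = 1.26e-05) and by 3.10-fold with LAA+ATRA (log2 -1.63 ± 0.14, adjusted p = 3.25e-06). PFKFB4, a HIF-induced relative of PFKFB3, was not called with ATRA (log2 -0.48 ± 0.29, adjusted p = 0.214) or with LAA+ATRA (log2 -0.61 ± 0.30, adjusted p = 0.116), and its groups overlapped. PDK3, a relative of PDK1, was not called with ATRA (log2 -0.19 ± 0.10, adjusted p = 0.14) and fell with LAA+ATRA (log2 -0.39 ± 0.10, adjusted p = 0.00587), a call made in 12 of 16 alternatives (adjusted p 0.00206 to 0.456) and lost without vehicle replicate 2 (log2 -0.37). By FPKM, PFKFB3 held 60.3 and 74.0% of its family with LAA+ATRA, 63.0 and 70.9% with ATRA, 28.8 and 41.8% under LAA and 36.6 and 29.2% in vehicle. PDK1 remained the main member of its pair in every library, at 87.6 to 94.9%.

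Transcripts of both HIF alpha subunits rose with ATRA. HIF1A (ENSG00000100644.17, chr14:61695513-61748259, plus strand), the oxygen-labile subunit present in most cells, had 53.2 and 47.2 CPM with LAA+ATRA, 66.7 and 78.9 CPM with ATRA, 34.5 and 35.4 CPM with LAA, and 44.9 and 42.7 CPM in vehicle. The ATRA libraries were highest, LAA+ATRA next, vehicle below, and LAA lowest, with no overlap between these groups. HIF1A rose by 1.66-fold with ATRA against vehicle (log2 0.73 ± 0.11, adjusted p = 0.000221), while LAA+ATRA against vehicle was not called (log2 0.20 ± 0.11, adjusted p = 0.178). EPAS1, which encodes HIF-2 alpha, had 19.1 and 20.7 CPM with LAA+ATRA, 22.0 and 18.9 CPM with ATRA, 11.9 and 11.4 CPM with LAA, and 14.5 and 11.3 CPM in vehicle. Its libraries with ATRA were all higher than those without, a rise of log2 0.66 ± 0.15 for ATRA against vehicle (adjusted p = 0.00407) and of 0.62 ± 0.15 for LAA+ATRA against vehicle (adjusted p = 0.00593). Both EPAS1 calls were lost on leaving out vehicle replicate 2, with log2 fold changes of 0.49 and 0.45. Their adjusted p ran over the alternatives at 0.000391 to 0.0718 and 0.0012 to 0.0845. ARNT, the shared partner subunit, ranged from 42.8 to 65.8 CPM and was not called (log2 0.01 ± 0.11 for ATRA against vehicle, adjusted p = 0.965). Neither was VHL (log2 0.06 ± 0.13, adjusted p = 0.729).

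HIF targets outside glycolysis mostly fell or were not called. Of 9 tested, NDRG1 alone rose with ATRA against vehicle, and VEGFA, BNIP3, ERO1A and FAM162A fell, with a median log2 fold change of -0.62. That is 11.1% higher and 44.4% lower, against 21.9% and 21% of all genes. NDRG1 (ENSG00000104419.17, chr8:133237171-133302022, minus strand), a stress- and differentiation-responsive gene, had 534 and 312 CPM with LAA+ATRA, 770.5 and 520.5 CPM with ATRA, 181 and 212 CPM with LAA, and 243 and 303 CPM in vehicle. Both ATRA groups lay above the rest, though LAA+ATRA replicate 2 only slightly exceeded vehicle replicate 2, and NDRG1 rose by 2.36-fold with ATRA (log2 1.24 ± 0.23, adjusted p = 0.000939). VEGFA (ENSG00000112715.26, chr6:43770184-43786487, plus strand), the angiogenic growth factor, had 53.4 and 43.0 CPM with LAA+ATRA, 53.9 and 44.6 CPM with ATRA, 125 and 114 CPM with LAA, and 107 and 114 CPM in vehicle. It was lower in every library with ATRA than in any without it, and fell by 2.25-fold with ATRA (log2 -1.17 ± 0.13, adjusted p = 1.73e-05). FAM162A, a mitochondrial protein gene, had 33.9 and 31.3 CPM with LAA+ATRA, 28.2 and 32.3 CPM with ATRA, 69.3 and 64.6 CPM with LAA, and 56.5 and 71.7 CPM in vehicle. BNIP3, a receptor for the removal of mitochondria by autophagy, had 25.6 and 17.0 CPM with LAA+ATRA, 30.9 and 24.8 CPM with ATRA, 54.6 and 47.9 CPM with LAA, and 46.9 and 69.9 CPM in vehicle. In both genes the 4 libraries with ATRA were the lowest, and FAM162A fell by 2.12-fold (log2 -1.08 ± 0.13, adjusted p = 3.3e-05) and BNIP3 by 2.10-fold (log2 -1.07 ± 0.20, adjusted p = 0.00113) with ATRA against vehicle. Reads listed under 35 BNIP3 copies came to at most 0.877% of the BNIP3 counts in any library.

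ERO1A, an oxidase that helps form disulfide bonds in secreted proteins, fell by 1.54-fold with ATRA against vehicle (log2 -0.62 ± 0.11, adjusted p = 0.000623). BNIP3L, the relative of BNIP3, was not called (log2 -0.16 ± 0.11, adjusted p = 0.274). ADM, the vasodilator peptide adrenomedullin, was a low gene, with 1.84 and 0.704 CPM with LAA+ATRA, 3.48 and 1.86 CPM with ATRA, 4.17 and 4.68 CPM with LAA, and 2.60 and 5.53 CPM in vehicle. LAA+ATRA held the lowest libraries, and the ATRA and vehicle libraries overlapped. Its log2 fold change was -0.62 ± 0.45 for ATRA against vehicle (adjusted p = 0.296) and -1.68 ± 0.49 for LAA+ATRA against vehicle (adjusted p = 0.0143). ANKRD37, an ankyrin repeat gene, and BHLHE40, a transcriptional repressor with roles in the circadian clock, were not called in any of the 5 comparisons between groups, and the groups overlapped in each.

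With LAA+ATRA against vehicle, NDRG1 rose (log2 0.63 ± 0.23, adjusted p = 0.0397) and 6 HIF targets fell: VEGFA (-1.20 ± 0.13), BNIP3 (-1.46 ± 0.21), BNIP3L (-0.49 ± 0.11), ADM (-1.68 ± 0.49), ERO1A (-0.89 ± 0.11) and FAM162A (-0.97 ± 0.13). Of the 9 tested, 11.1% were thus higher and 66.7% lower, against 23.1% and 21.5% of all genes. The NDRG1 call was made in 11 of 16 alternatives (adjusted p 2.51e-07 to 0.489). Its log2 fold change was 0.20 without LAA+ATRA replicate 1, 0.97 without LAA+ATRA replicate 2, 0.48 without vehicle replicate 1 and 0.80 without vehicle replicate 2, of which only the fit without LAA+ATRA replicate 2 gave a call. ADM lost its call without vehicle replicate 2 (log2 -1.04) or LAA+ATRA replicate 2 (-1.13), with adjusted p over the alternatives of 1.09e-05 to 0.166, and was at -2.51 without LAA+ATRA replicate 1. The vehicle replicates differed in common here: replicate 2 was above replicate 1 for 9 of 9 HIF targets, with a median log2 difference of 0.34 where the median over all genes was -0.01. LAA+ATRA replicate 2 was below replicate 1 for 8 of 9, with a median of -0.39. Without vehicle replicate 2, 17 of the listed genes were called for ATRA against vehicle and 16 for LAA+ATRA against vehicle; without vehicle replicate 1 these were 19 and 20, where all libraries gave 22 and 24. Calls over all genes dropped too, to 4589 and 4915 without vehicle replicate 2 and to 4461 and 4526 without vehicle replicate 1, where all libraries gave 6428 and 6701. VEGFA, BNIP3, ERO1A and FAM162A were called in all 16 alternatives in both comparisons. Summed FPKM over the 10 listed HIF targets was 388 and 289.8 with LAA+ATRA, 474 and 389 with ATRA, 358 and 364 under LAA and 352 and 439.7 in vehicle, and the vehicle libraries overlapped every other group. The ATRA libraries lay above those with LAA+ATRA and those with LAA. NDRG1 was the largest part in every library except the LAA ones, where FAM162A was.

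**Figure D3:**
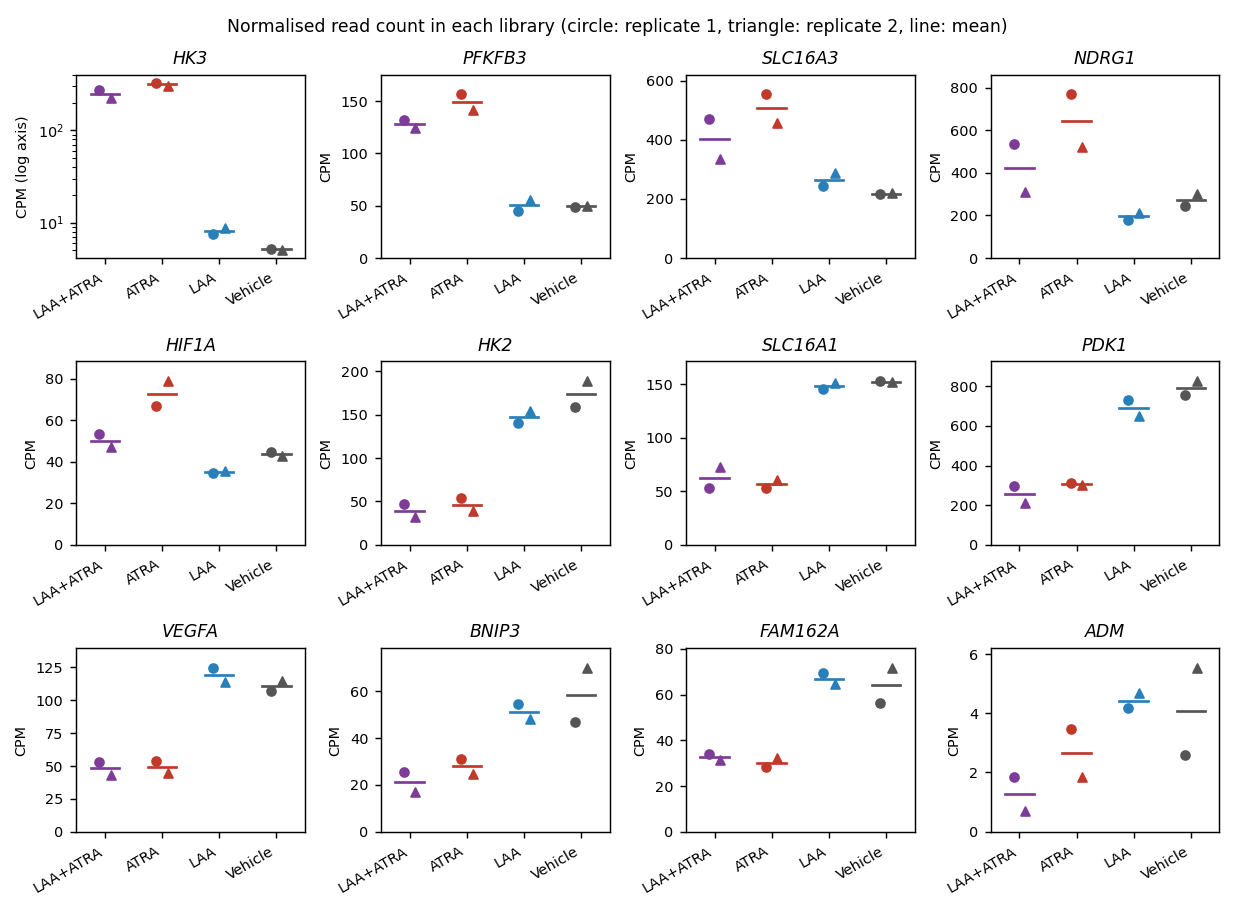
Normalised read count (y axes, CPM, on a log axis for HK3 and from 0 for the others) of 12 genes in each library, by group (x axes), with circles for replicate 1, triangles for replicate 2 and a line at the mean. HK3, PFKFB3, SLC16A3 and NDRG1 are higher, and HK2, SLC16A1, PDK1, VEGFA, BNIP3 and FAM162A lower, in all 4 libraries with ATRA than in all 4 without it; ADM overlaps between ATRA and vehicle.

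With LAA alone against vehicle, edgeR called none of the 37 genes, where 0.0267% of all genes were called. At an unadjusted p under 0.05 there were 6, and 18.9% of all genes. They were HK3 (log2 0.66 ± 0.16, adjusted p = 0.0646), which was higher with LAA, and, with the values in the same order, PDK3 (-0.36 ± 0.10, 0.0892), ARNT (-0.40 ± 0.11, 0.0969), HIF1A (-0.33 ± 0.11, 0.154), BNIP3L (-0.34 ± 0.11, 0.141) and ERO1A (-0.27 ± 0.11, 0.204), which were lower. In each of these 6 both LAA libraries lay outside the range of the vehicle libraries. Across the 37 genes, 16 had groups that did not overlap (43.2%, against 55.9% of all genes). DESeq2 called 3, edgeR without the low-count filter called 3, and edgeR on the libraries compared alone called 9, where all-gene counts also moved, to 2187 with the last. HK3 was called in 6 of 16 alternatives (adjusted p 0.00412 to 0.633), including those without ATRA replicate 1 (log2 0.65), LAA+ATRA replicate 1 (0.65) or LAA+ATRA replicate 2 (0.66), libraries that bear on this comparison through the shared estimate of spread. The median log2 fold change was 0 for the set and 0.01 for all genes.

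With LAA+ATRA against ATRA, edgeR called 1 of the 37 genes, HIF1A, which is 2.7% against 1.01% of all genes. The LAA+ATRA and ATRA libraries did not overlap for 12 of the 37 genes, HIF1A among them (32.4%, against 44% of all genes). HIF1A was lower with LAA+ATRA, at 53.2 and 47.2 CPM, than with ATRA, at 66.7 and 78.9 CPM (log2 -0.54 ± 0.11, adjusted p = 0.0466). The call was made in 4 of 16 alternatives (adjusted p 0.00128 to 0.208). Of the 8 fits that left out a library it held in the one without ATRA replicate 1 (log2 -0.65). It was lost without ATRA replicate 2 (-0.41), LAA+ATRA replicate 1 (-0.63) or 2 (-0.45), and without any of the LAA and vehicle libraries (-0.54 for each). It was also lost with replicate number as a block (adjusted p = 0.0763). At an unadjusted p under 0.05 HK3 (log2 -0.34 ± 0.11), BNIP3L (-0.33 ± 0.11), NDRG1 (-0.61 ± 0.23) and ERO1A (-0.27 ± 0.11) were lower too, with adjusted p of 0.135, 0.151, 0.178 and 0.217. Counting HIF1A, 5 of the 37 genes were under this level, where 18.6% of all genes were. The log2 fold change was below 0 for 28 of the 37 genes (75.7%), against 49.4% of all genes, and the median was -0.18, against 0. LAA+ATRA replicate 2 was below replicate 1 for 32 of the 37 genes, with a median log2 difference of -0.27, and ATRA replicate 2 was below ATRA replicate 1 for 29 of the 37, with a median of -0.15. The part of these differences between replicates in the shift was not tested.

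The interaction asks whether the log2 change with both compounds differs from the sum of the single changes. A value below 0 means that the signed change lay below that sum, a smaller rise or a larger fall. With edgeR no listed gene was called and 0.00667% of all genes were. HK3 (log2 -0.996 ± 0.19, adjusted p = 0.383) and SLC16A3 (-0.61 ± 0.22, 0.869) were below an unadjusted p of 0.05, as 4.98% of all genes were. DESeq2 called 1 gene, HK3, and edgeR without the low-count filter called both. The adjusted p over the alternatives ran at 0.0002 to 1 for HK3 and 0.0262 to 1 for SLC16A3.

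With LAA+ATRA against LAA, HK3, PKM, SLC16A3, PFKFB3, HIF1A, EPAS1 and NDRG1 rose. Those that fell were HK2, PFKP, ALDOC, ENO1, ENO2, LDHA, LDHB, SLC16A1, PDK1, VEGFA, BNIP3, ADM, ERO1A and FAM162A. HK3 changed by log2 4.94 ± 0.14 (adjusted p = 5.23e-10), HK2 by -1.90 ± 0.18 (7.8e-06), PDK1 by -1.44 ± 0.14 (1.09e-05) and HIF1A by 0.52 ± 0.11 (0.00344). SLC16A3 lost its call without LAA replicate 1 (log2 0.49) or LAA+ATRA replicate 1 (0.35), where all libraries gave 0.60 ± 0.15. Calls were also lost for PKM (log2 0.39) without LAA replicate 1 (0.36), for PFKP (-0.55) without LAA replicate 2 (-0.46) and for ADM (-1.80) without LAA replicate 2 (-1.72) or LAA+ATRA replicate 2 (-1.25). ENO1 (-0.40) lost it without either vehicle library (-0.39 each), either LAA library (-0.43 and -0.36) or LAA+ATRA replicate 2 (-0.18), with adjusted p over its alternatives of 0.000967 to 0.301. ALDOC (-1.18) and NDRG1 (1.11) kept their calls without either LAA+ATRA library, but their sizes moved. ALDOC changed by log2 -1.81 without LAA+ATRA replicate 1 and by -0.72 without replicate 2, and NDRG1 by 0.68 without replicate 1 and 1.45 without replicate 2. Without LAA+ATRA replicate 1 ADM was at -2.62 and ENO1 at -0.63, and without LAA+ATRA replicate 2 PFKP was at -0.36, all called.

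**Figure D4:**
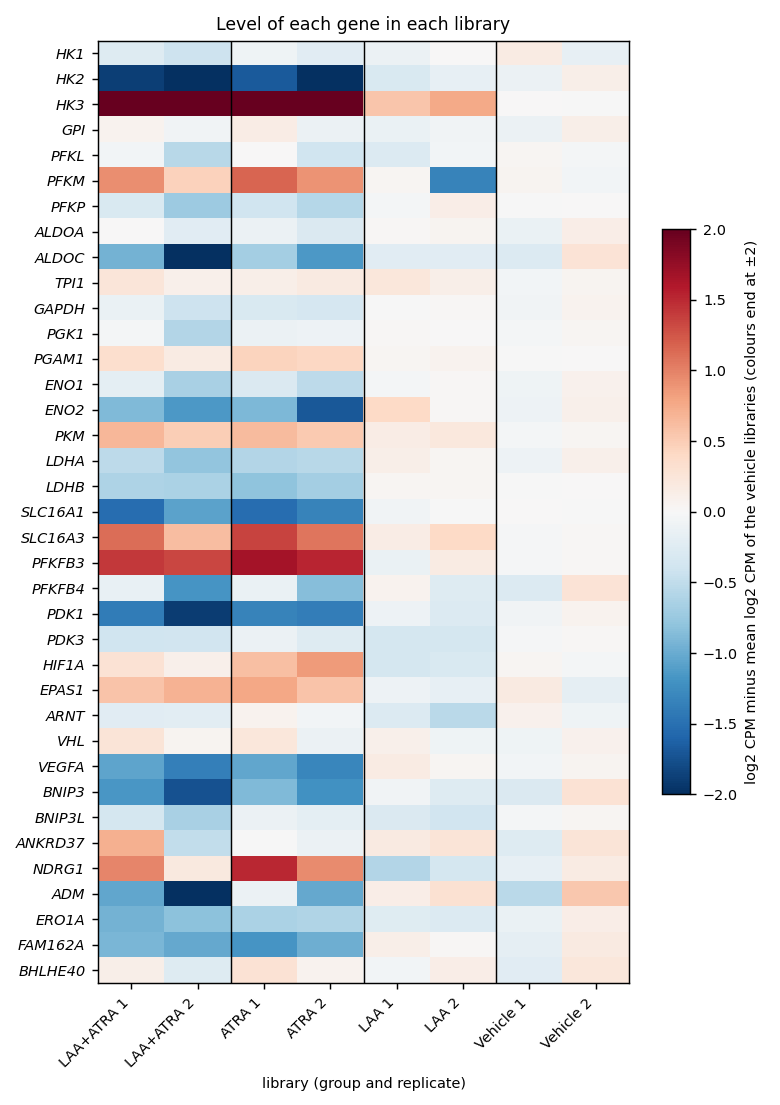
Log2 CPM of each of the 37 tested genes (y axis) in each library (x axis), relative to the mean of the vehicle libraries, with colours ending at ±2. The 4 libraries with ATRA share a pattern of reds and blues that the LAA libraries lack, and LAA+ATRA replicate 2 is below LAA+ATRA replicate 1 for 32 of the 37 genes.

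Genes next to the listed ones in the same pathways were counted with the same fit for ATRA against vehicle, and parentheses give the log2 fold change with its SE, then the adjusted p. Of all genes tested, 21.9% rose and 21% fell in this comparison. In glucose transport and entry, 3 of 6 tested rose with ATRA. With LAA+ATRA against vehicle, 1 of the 6 rose and 1 fell (16.7% each, against 23.1% and 21.5% of all genes). SLC2A5, the fructose carrier GLUT5, had 579 and 496 CPM with LAA+ATRA, 876 and 752 CPM with ATRA, 88.5 and 78.1 CPM with LAA, and 93.4 and 116 CPM in vehicle. All libraries with ATRA exceeded all without it, and SLC2A5 rose by 7.77-fold with ATRA against vehicle (log2 2.96 ± 0.14, adjusted p = 1.45e-08). The glucose carriers SLC2A1 (0.25 ± 0.17, 0.242) and SLC2A3 (-0.55 ± 0.21, 0.0513) were not called, and the low SLC2A6 (1.15 ± 0.42, 0.0443) and SLC2A14 (1.69 ± 0.56, 0.0286) rose; SLC2A14 is a near copy of SLC2A3, so its reads are uncertain.

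Of 8 other glycolytic isoenzymes and branch enzymes, 3 rose: ADPGK, an ADP-dependent glucokinase (log2 0.60 ± 0.10, adjusted p = 0.000422), TIGAR, which breaks down fructose 2,6-bisphosphate (1.17 ± 0.26, 0.00307), and the enolase ENO3 (0.74 ± 0.22, 0.0168). Of 4 gluconeogenic genes, PCK2 (-1.04 ± 0.14, 9.52e-05) and PC (-1.03 ± 0.17, 0.000487), which make phosphoenolpyruvate and oxaloacetate in mitochondria, fell, and the low FBP1 (1.8 ± 0.52, 0.0138), fructose bisphosphatase, rose. Pyruvate entry into mitochondria had 7 of 11 genes lower, led by DLAT (-0.74 ± 0.12, 0.000278) and PDHX (-0.46 ± 0.12, 0.00856), parts of the pyruvate dehydrogenase complex, and MPC2 (-0.42 ± 0.12, 0.0124), of the mitochondrial pyruvate carrier. The list medians were 0.40, -0.47 and -0.31, that of glucose transport was 0.70, and the median over all genes was 0.

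Among 15 HIF regulators, 4 rose (26.7%) and 3 fell (20%), near the 21.9% and 21% of all genes, with a median log2 fold change of 0.10. OS9 (1.04 ± 0.10, 6.94e-06), reported to promote HIF-1 alpha degradation, and EGLN2 (0.64 ± 0.10, 0.000283), a HIF prolyl hydroxylase, rose, and SIAH2 (-0.90 ± 0.10, 2.19e-05), a ubiquitin ligase that targets prolyl hydroxylases, fell. Of 35 other HIF targets, 8 rose (22.9%), near the share of all genes, and 13 fell (37.1%), with a median of -0.25. RAB20 (1.25 ± 0.11, 2.16e-06), a small GTPase, and CXCR4 (1.32 ± 0.12, 2.77e-06), a chemokine receptor, rose, and MXI1 (-1.14 ± 0.12, 9.72e-06), a MYC antagonist, fell. The list of MYC, its partners and TXNIP had 6 tested genes. MYC itself, a known activator of glycolytic genes, fell, with 91.9 and 84.7 CPM with LAA+ATRA, 75.7 and 69.9 CPM with ATRA, 340.2 and 387 CPM with LAA, and 389.9 and 361 CPM in vehicle (log2 -2.37 ± 0.11, adjusted p = 1.11e-08). Its 4 libraries with ATRA lay far below the 4 without it. The other 5 rose (83.3% of the 6, against 21.9% of all genes), TXNIP (0.77 ± 0.12, 0.000185) and MAX (0.54 ± 0.10, 0.000887) by the lowest adjusted p. TXNIP, a glucose-responsive inhibitor of glucose uptake, was the one gene of these 7 lists called for LAA+ATRA against ATRA. It had 163 and 129 CPM with LAA+ATRA and 228 and 233 CPM with ATRA (log2 -0.66 ± 0.12, adjusted p = 0.0333). Whether the TXNIP call holds under the alternative settings was not examined. Calls over all genes in this comparison numbered 152, but 15 with only the libraries compared and 903 without the low-count filter.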

How the data were processed

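Poly-A RNA from 8 U-937 libraries was made with an NEBNext Ultra II kit, per the labels' protocols. The submitters' processing notes name GRCh38 (hg38), with Salmon 1.8.0 and DESeq2 1.36.0 as tools; the annotation release and strand setting were not stated. Estimated counts, as deposited, are per gene and not whole; they were rounded, which changed 16.5% of the values. The FPKM values, scaled by length and library size, were deposited by the authors; they were used for levels between genes and in alternatives. All of the analysis steps that follow were made from these tables.

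Genes were filtered with filterByExpr (14995 kept), scaled by TMM and fitted with 4 group means over 8 libraries in edgeR 4.0.16 under R 4.3.3 (quasi-likelihood test, two-sided, 4 residual degrees of freedom), with Benjamini-Hochberg adjustment over all genes tested in each comparison and a call at an adjusted p under 0.05. CPM are counts per 1e6 of TMM-scaled library size. With 2 libraries per group, precision comes mostly from the spread shared over genes (8.2 prior degrees of freedom). The scripts were tested on simulated data. Alternatives were RLE scaling, DESeq2 1.42.0, no filter, replicate number as a block, only the libraries compared, limma 3.58.1 on log2(FPKM + 1) or log2(FPKM + 0.1), with genes of at least 1 FPKM in a group or without that filter, and leaving out each library, which leaves 1 library in a group, taken to vary as much as other groups do. Positions come from GENCODE 29, matched by symbol, since the version suffixes of the deposited gene IDs differ from that release; promoters come from RefSeq.

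The listed genes, the pathway lists and the markers were chosen with earlier results of these data known. Values in every library are given for genes called at 2-fold or more in any comparison between groups, for genes called with LAA against vehicle, with LAA+ATRA against ATRA or in the interaction, and for the 3 most abundant; a few other genes are given likewise. From each pathway list up to 3 called genes are named by adjusted p; other genes of those lists were named after their values were seen. Some marker genes are not reported here.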

Additional observations from a re-analysis of the deposited data

How the results depend on the processing

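No called gene of the list changed sign under any of the 16 alternatives. The calls that held under every alternative were 16 of the 22 genes called with ATRA against vehicle, 15 of 24 with LAA+ATRA against vehicle, 15 of 21 with LAA+ATRA against LAA and 0 of 1 with LAA+ATRA against ATRA. Leaving out each library gave 17 to 22 listed genes for ATRA against vehicle, 16 to 25 for LAA+ATRA against vehicle, 18 to 23 for LAA+ATRA against LAA, 0 to 1 for LAA+ATRA against ATRA and 0 to 1 for LAA against vehicle.

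Small comparisons depended most on the setting, and the cause was not tested. For LAA+ATRA against ATRA, listed genes numbered 2 with DESeq2, 3 without the filter, and 0 with only the libraries compared, the replicate block or any of the 3 FPKM fits. For LAA against vehicle they numbered 3 with DESeq2, 3 without the filter and 9 with only the libraries compared; for the interaction they numbered 1 with DESeq2 and 2 without the filter. Over all genes, LAA+ATRA against ATRA gave 152 calls, and 661 with DESeq2, 903 without the filter, 15 with only the libraries compared, 30 with the block, 6 with log2(FPKM + 1), 4 with log2(FPKM + 0.1), 27 with FPKM unfiltered and 6 to 172 on leaving out a library. LAA against vehicle gave 4, and 680, 828, 2187, 2, 2, 3 and 7 in that order, with 0 to 469 on leaving out a library. The interaction gave 1, and 16 with DESeq2, 136 without the filter, 2 with log2(FPKM + 1), 3 with log2(FPKM + 0.1), 10 with FPKM unfiltered and 1 to 15 on leaving out a library. Unfiltered FPKM gave 4163 calls for ATRA against vehicle, 4334 for LAA+ATRA against vehicle and 3352 for LAA+ATRA against LAA.

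Replicate numbers were not treated as pairs: the differences between replicate 2 and replicate 1 correlated at -0.12 to 0.098 between groups. With the replicate block, 22 listed genes were called for ATRA against vehicle and 6142 of all genes, and HIF1A lost its call for LAA+ATRA against ATRA. PFKM and ADM, both low genes, had the widest standard errors of the 37 for ATRA against vehicle, at 0.483 and 0.453 on the log2 scale.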
